A study of Rattus norvegicus with 92 samples.

Results

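A transcript whose share of the messenger RNA is alike in unlike tissues was looked for among 20508 rows measured in 8 rat tissues, and 1 row met the rule, ENSRNOT00000108471. The rule took CPM (the value of a row divided by the sum of its sample, times 1000000) averaged over air samples. It asked for at least 30 CPM in every tissue, for a highest tissue at most 1.5 times the lowest, and for air and acrolein ranges that overlapped in liver and in nasal epithelium. In all, 1807 rows reached 30 CPM in the 8 tissues, 1 of them was within the limit of 1.5, and it also had the overlap in both tissues. Of 4 scales tried, its evenness held on CPM alone, and under each of the 3 other ways of putting the tissues on a common scale the row was above the limit, as given further on. The row was selected on its air levels in every tissue and on its air and acrolein ranges in liver and nasal epithelium, so these are given as descriptions without a test.

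Male Wistar-Kyoto rats, an inbred strain, breathed filtered air (0 ppm) or acrolein through the nose alone for 4 h and were necropsied right after. Acrolein, a reactive aldehyde of smoke that irritates the airways, was raised in steps over 30 min and then held at 3.16 ppm for 3.5 h. Messenger RNA of nasal epithelium, lung, liver, adrenal, adipose, muscle, hippocampus and hypothalamus was sequenced in 92 samples, 48 of air and 44 of acrolein, with 4 to 8 in a group. Recovered read totals ran from 2513375 to 30194066 with a median of 15694239, and the row held 261 to 3270 reads in a sample. The samples carry 16 numbers in all, 1 to 8 in air and 9 to 16 in acrolein, which recur from tissue to tissue. The labels do not say what the numbers stand for, so the tissues may come from the same rats and cannot be taken as independent sets of animals. Each p-value sets a difference against the spread between these samples.

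Genes needed in every cell, such as those for ribosomes, the proteasome, splicing or the cytoskeleton, are often called housekeeping genes, and some serve as references when expression is compared between samples. A level given as a part of all reads is relative: where a few transcripts take much of the RNA of a tissue, every other transcript has a smaller part of the reads. Liver, which secretes plasma proteins, and skeletal muscle, which makes much contractile protein, are textbook tissues of that kind. In bulk tissue, fewer cells that express a transcript and less of it in each cell cannot be told apart. The files do not pair the identifiers with gene symbols, so the function of ENSRNOT00000108471 is not given here, and the tissue labels could not be checked against named marker genes.

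In air samples, the mean level of ENSRNOT00000108471 lay between 89.0 and 122 CPM across the tissues, a ratio of highest to lowest of 1.37. The lowest was nasal epithelium, where the 5 samples had 73.0, 83.5, 90.4, 97.7 and 100.4 CPM and a mean of 89.0 ± 11.1 CPM (SD, n = 5). In hippocampus, the 6 samples ran from 57.2 to 106.7 CPM around a median of 93.9, with a mean of 89.5 ± 17.5 CPM (SD, n = 6). The lowest hippocampus sample, air replicate 8, was also the lowest of all 92 samples.

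The 8 lungs ran from 69.7 to 112 CPM around a median of 96.5, with a mean of 93.8 ± 12.9 CPM (SD, n = 8). In adipose, 2 samples carried the number 8 and were averaged, having 94.2 and 103.8 CPM. The 4 other adipose samples had 86.0, 91.6, 104.2 and 117.4 CPM, and the mean was 99.7 ± 12.1 CPM (SD, n = 5). The lung and adipose ranges overlapped each other and those of nasal epithelium and hippocampus.

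Muscle samples ran from 93.3 to 131.9 CPM around a median of 114, with a mean of 113 ± 19.3 CPM (SD, n = 6). On CPM the muscle air samples lay in separate clusters. Replicates 2, 5 and 6 lay between 93.3 and 99.2 CPM, and replicates 4, 7 and 8 between 129.5 and 131.9 CPM. The deposited values did not show these clusters, since replicate 8 (2106) lay below replicate 6 (2345). Hypothalamus samples ran from 109.9 to 125.5 CPM around a median of 116, with a mean of 116 ± 5.94 CPM (SD, n = 6). Of the air groups, hypothalamus was the least variable for the row.

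The 5 air livers had 108.4, 108.7, 117.1, 122.3 and 125.2 CPM, with a mean of 116 ± 7.68 CPM (SD, n = 5). The highest mean was in adrenal, where the 6 samples ran from 100.2 to 143.4 CPM around a median of 122, with a mean of 122 ± 17.2 CPM (SD, n = 6). Adrenal air replicate 2 was the highest of all 92 samples. From the lowest tissue to the highest, the order was nasal epithelium, hippocampus, lung, adipose, muscle, hypothalamus, liver and adrenal. No neighbours in this order differed by more than the larger of their SDs, and their ranges overlapped in every case; the widest gap, between adipose and muscle, was 13.7 CPM against SDs of 12.1 and 19.3. Tissues farther apart in the order could be separate. Of the 28 pairs of tissues, 4 had ranges that did not overlap in air on CPM. Every sample of nasal epithelium and hippocampus lay below every sample of liver and hypothalamus, with means 1.30 to 1.31 times apart. How often pairs of tissues do not overlap was not counted for the other rows.

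**Figure D1:**
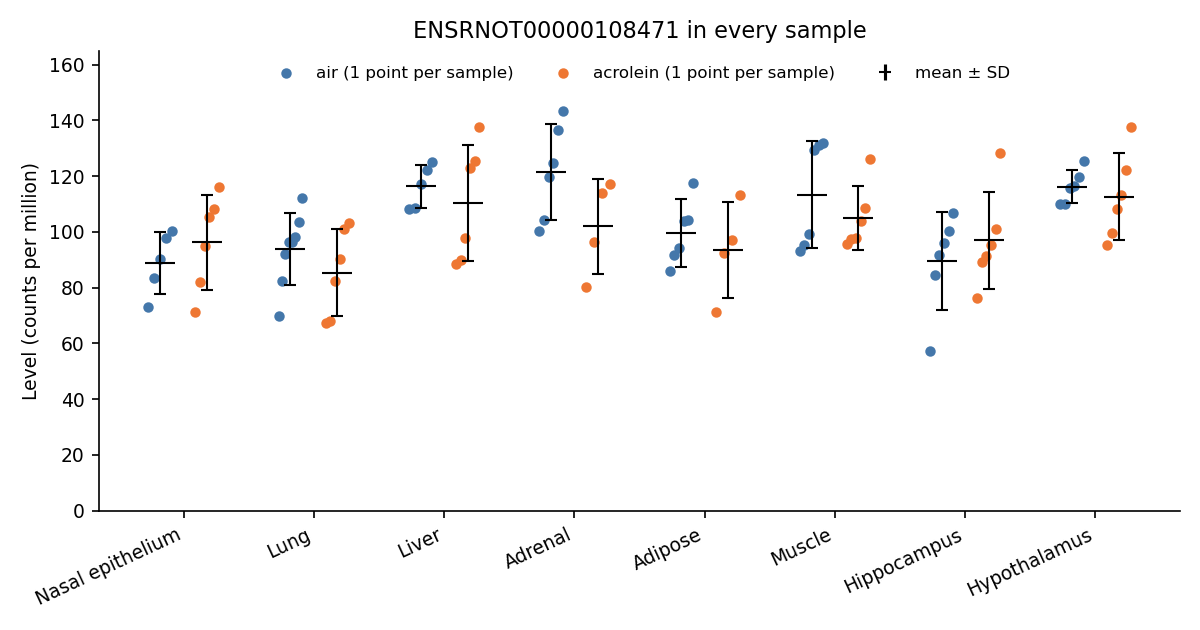
Level of ENSRNOT00000108471 in CPM in every sample, by tissue and exposure, with the group mean and SD as black bars. The 92 samples lie between 57.2 and 143.4 CPM. The air and acrolein ranges overlap in all 8 tissues. The rule required this in liver and nasal epithelium, and nearly all rows show it in the other 6.

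Among the 1807 rows at 30 CPM or more in every tissue, such a narrow span was the low end of a broad range. The ratio of highest to lowest tissue in air had a median of 4.27 over these rows, with quartiles at 2.98 and 6.73 and a highest value of 627. Liver was the lowest tissue for 779 of the rows (43.1%) and muscle for 562 (31.1%), whereas ENSRNOT00000108471 was above its mean over the 8 tissues in both. The row was selected on these same air means, so its low ratio and its place in liver and muscle are descriptions. The 3 rows just outside the limit were ENSRNOT00000054913 at a ratio of 1.503, ENSRNOT00000105245 at 1.507 and ENSRNOT00000109359 at 1.524. At a limit of 2 in place of 1.5, 89 rows met the rule.

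**Figure D2:**
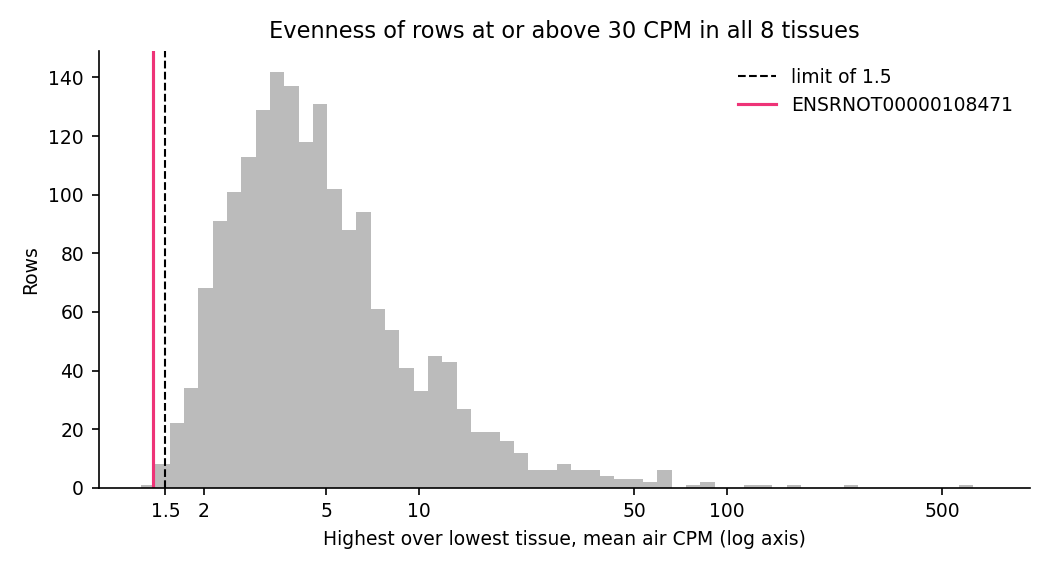
Number of rows by the ratio of highest to lowest tissue in mean air CPM (log axis), for the 1807 rows with at least 30 CPM in all 8 tissues. The dashed line is the limit of 1.5, and the solid line is ENSRNOT00000108471 at 1.37; the median row is at 4.27.

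The acrolein samples gave the same measure in animals whose levels the rule did not average, although it used their ranges in liver and nasal epithelium. Their means ran from 85.4 ± 15.7 CPM in lung (SD, n = 6) to 113 ± 15.5 CPM in hypothalamus (SD, n = 6), a ratio of 1.32. Adipose had 93.5 ± 17.3 CPM (SD, n = 4), nasal epithelium 96.3 ± 17.1 CPM (SD, n = 6) and hippocampus 97.0 ± 17.4 CPM (SD, n = 6). Adrenal had 102 ± 17.1 CPM (SD, n = 4), muscle 104.9 ± 11.4 CPM (SD, n = 6) and liver 110 ± 20.9 CPM (SD, n = 6). The order differed from that in air, and again no neighbours were farther apart than the larger SD. In acrolein samples 0 of the 28 pairs had ranges that did not overlap on CPM, and this too was counted for no other row. Over the 1807 rows, the median ratio in acrolein samples was 4.21, the lowest was 1.29, and 5 rows (0.277%) were within 1.5. The rows just outside the limit in air had ratios of 1.61 (ENSRNOT00000054913), 2.02 (ENSRNOT00000105245) and 1.73 (ENSRNOT00000109359) in acrolein samples.

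Taken sample by sample on CPM, the highest of the 92 samples was 2.51 times the lowest, and 1 of the 1807 rows had a smaller ratio. Over the 92 samples, the median row had a ratio of 10.7 between its highest and lowest sample. The row was selected on the levels of the 48 air samples among them, so this rank is a description. Within those 48 air samples alone, 4 rows had a smaller ratio. Within the 44 acrolein samples the span ran from 67.1 CPM (lung replicate 9) to 137.6 CPM (liver replicate 15), a ratio of 2.05. There, 0 rows had a smaller ratio, and the median row had 8.502. The rule used the ranges of these samples in liver and nasal epithelium, so this rank on CPM is a description too.

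On CPM, the spread between replicates was least in hypothalamus and liver in air. The coefficient of variation (CV, the SD over the mean) in air was 5.11% in hypothalamus, where 10 of the 1807 rows had a lower one, and 6.60% in liver, where 16 did. It was 12.2% in adipose, 12.5% in nasal epithelium, 13.8% in lung, 14.1% in adrenal, 16.99% in muscle and 19.5% in hippocampus. Single samples weighed on these values, as the CV was 8.76% in hippocampus without air replicate 8 and 8.19% in nasal epithelium without air replicate 4. With all samples, each of the 8 was below the median CV of the 1807 rows in its tissue, which was 20.4% in hippocampus and 23.7% in liver. In acrolein samples the CV was 18.9% in liver, against a median row of 16.6%, and 18.5% in adipose, against 15.6%, so the row varied more than the median row there. In the other 6 tissues it ran from 10.9% in muscle to 18.3% in lung, below the median row of each. Counting error alone, from the number of reads behind each value, gives a CV of 2.08% to 3.81%, which was below the spread between replicates in every group. The spreads and ranks given here are on CPM. On the deposited values the air CV was 3.24% in hypothalamus, 8.46% in nasal epithelium and 8.64% in liver.

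Acrolein was then compared with air in each tissue, on the values as deposited, with limma over all rows tested and Benjamini-Hochberg adjustment. The limits were an adjusted p of 0.1 and a fold above 1.2, or below the inverse of 1.2 for a fall. In the 6 tissues whose contrast the rule did not use, ENSRNOT00000108471 was called in 0 by limma, edgeR or DESeq2, and an unadjusted p under 0.05 was reached in 0 by any of them. Few rows at all were called there by limma, 0.00499% of rows tested in lung and 0% in adrenal, adipose, muscle, hippocampus and hypothalamus, so that a row left uncalled is near the background. edgeR called 0.0299% in lung and 0% in the other 5, and DESeq2 called 0.469% in lung, 0.0908% in adrenal, 0.0305% in muscle, 0.00509% in adipose, 0.00498% in hypothalamus and 0% in hippocampus.

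In lung, where acrolein meets the lower airways, the 6 acrolein samples ran from 67.1 to 103.2 CPM around a median of 86.3, below the 96.5 of the air lungs but within an overlapping range. The log2 fold change, acrolein minus air, was -0.18 (95% interval -0.50 to 0.13, adjusted p = 0.754 by limma). The interval spans folds of 0.709 to 1.10, so a fall of the size of the fold limit remained within it, while a rise of that size did not.

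The adrenal gland, which releases corticosteroids and adrenaline under stress, had acrolein samples at 80.3, 96.5, 113.9 and 117.3 CPM, of which 2 lay within the air range and 2 below it. On the deposited values only acrolein replicate 10, at 971.6, lay below the lowest air value, 982.3. The log2 fold change on those values was -0.10 (95% interval -0.41 to 0.20, adjusted p = 0.850 by limma), and on CPM it was -0.25, also uncalled. In adipose, which stores and releases fatty acids, the 4 acrolein samples had 71.2, 92.6, 97.2 and 113.1 CPM. The log2 fold change there was -0.09 (95% interval -0.51 to 0.32, adjusted p = 0.998 by limma), the widest interval of the 8.

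In muscle, the 6 acrolein samples ran from 95.6 to 126.1 CPM around a median of 101. On CPM, 3 of them lay inside the lower cluster of the air samples and 3 between the clusters, which the deposited values did not show. The log2 fold change was 0.01 on the deposited values (95% interval -0.38 to 0.40, adjusted p = 1.000 by limma) and -0.10 on CPM, so it had no settled sign.

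Both brain regions had overlapping ranges too. In hippocampus, the acrolein samples ran from 76.4 to 128.3 CPM around a median of 93.3, and the log2 fold change was 0.07 (95% interval -0.26 to 0.41, adjusted p = 0.923 by limma). In hypothalamus they ran from 95.3 to 137.5 CPM around a median of 111, on either side of the narrow air range, and the log2 fold change was -0.09 (95% interval -0.36 to 0.18, adjusted p = 0.963 by limma). The spans of folds in the intervals were 0.8329 to 1.33 and 0.778 to 1.13.

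Ranges that do not overlap were scarce among all rows, at 0.0898% of rows tested in lung, 1.13% in adrenal, 0.966% in adipose, 0.0729% in muscle, 0.1% in hippocampus and 0.0703% in hypothalamus. An overlap in these 6 tissues is thus what nearly all rows show.

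In liver and nasal epithelium the overlap was part of the rule, and the values are a description. The 6 acrolein livers had 88.6 to 137.6 CPM around a median of 110, with replicates 9, 11 and 14 below the air range, replicate 15 above it, replicate 13 at 125.3 CPM just above it and replicate 16 at 123.0 CPM inside it. These positions are on CPM. On the deposited values, replicates 13 (2075) and 15 (2099) lay inside the air range of 1725 to 2125. The log2 fold change in liver on those values was -0.10 (95% interval -0.41 to 0.20). In nasal epithelium, which meets inhaled acrolein first, the 6 acrolein samples ran from 71.3 to 116.2 CPM around a median of 100, and the log2 fold change was 0.15 (95% interval -0.17 to 0.47). Of the rows tested in liver and nasal epithelium, limma called 0.368% and 0.651%, edgeR 1.53% and 0.552% and DESeq2 8.74% and 2.24%, and ranges did not overlap for 2.09% and 1.28%.

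**Figure D3:**
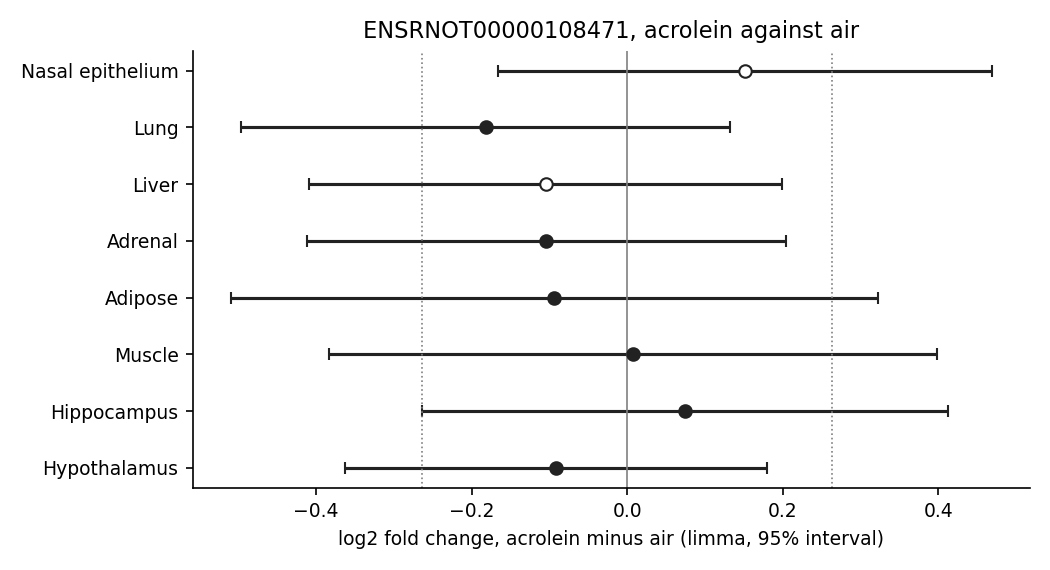
Log2 fold change of ENSRNOT00000108471, acrolein minus air, from limma on log2(value + 1), with its 95% interval (bars) in each tissue. Open points are the tissues whose ranges the rule used, dotted lines are the fold limits of 1.2 and its inverse, and the intervals of the 6 other tissues cross 0.

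How even the row looked between tissues depended on the scale. Under the median of ratios, which sets the typical row equal between samples, the air mean was 183 ± 18.5 in liver (SD, n = 5), 191 ± 44.5 in muscle (SD, n = 6) and 65.1 ± 5.95 in nasal epithelium (SD, n = 5). Its ratio of highest to lowest tissue was 2.93 on that scale, and 877 of 2181 rows were more even. Under TMM, the trimmed mean of M-values, the ratio was 3.12 and 1032 of 2345 rows were more even. With the 1% of rows that are highest in any tissue (206 rows) left out of the sample sum, it was 2.15, and 414 of 2994 rows were more even. In acrolein samples the ratios on these scales were 3.26, 3.33 and 2.10.

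Under each of the 3 scalings the row was highest in muscle and next in liver, and its level there was above the mean of the 8 tissues, by 1.80 and 1.73 times under the median of ratios. The 206 highest rows took 49.3% of the reads of air muscle and 45.0% of those of air liver, against 13.01% to 27.7% in the 6 other tissues. The factor from CPM to the median of ratios scale was 1.69 in muscle and 1.57 in liver, and 0.710 to 0.842 elsewhere. The rule gave 36 rows under the median of ratios, 36 under TMM and 23 without the 206 rows, and ENSRNOT00000108471 was in none of these lists. The median of ratios and TMM lists shared 23 rows (63.9% of each), while the median of ratios list shared 1 row with the one made without the 206 rows (2.78% and 4.35% of each).

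**Figure D4:**
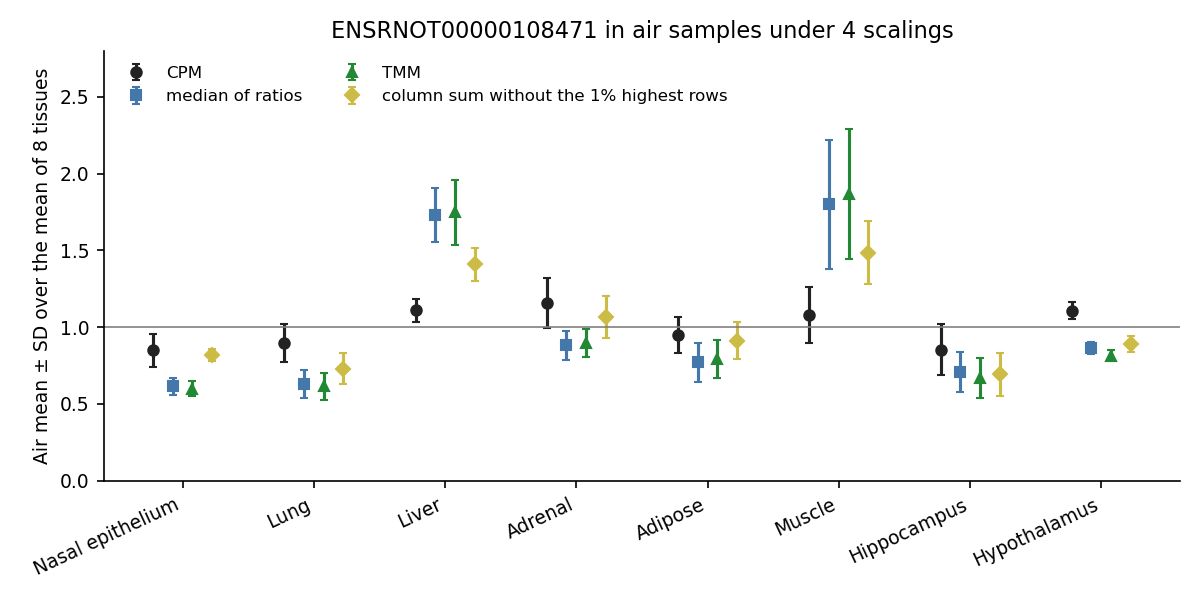
Air mean and SD of ENSRNOT00000108471 in each tissue, divided by its mean over the 8 tissues, under 4 scalings. CPM values lie near 1 in every tissue, while the 3 other scalings place liver and muscle above the rest.

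Rows typical of another tissue took more reads in some samples than in others of their tissue, and where those reads came from was not tested. For 5 tissues, 135 rows in all had a median air level of at least 500 CPM in that tissue and at most 1 part in 200 of it in each other tissue. In hippocampus air replicate 2, the 37 such muscle rows took 19526 ppm of the reads, against 3481 ppm in the next hippocampus sample and a median of 108 ppm, and the 74 liver rows took 3770 ppm. In all, 7 samples had more than 1500 ppm of their reads in rows of another tissue: hippocampus air 2 and 4 and acrolein 11, adipose air 1 and acrolein 10, liver air 1, and nasal epithelium acrolein 12. Without these 7 samples, the ratio of ENSRNOT00000108471 was 1.38 in air and 1.32 in acrolein samples, it still met the rule, and 4 rows met it in place of 1. The hippocampus air mean was then 88.0 ± 21.4 CPM (SD, n = 4), the adipose air mean 102 ± 12.99 CPM (SD, n = 4) and the liver air mean 114 ± 6.78 CPM (SD, n = 4). The log2 fold change moved to 0.15 in hippocampus and -0.23 in adipose, uncalled by limma in both, and, as a description, to -0.07 in liver and 0.12 in nasal epithelium.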

How the data were processed

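The deposited tables hold, per the labels and file values, normalized counts for each tissue, a signal that the authors made from reads mapped to rn7 in Partek Flow with Ensembl annotation (stated for liver). The steps in the values are those of reads divided by a size factor, 1 table per tissue. Whole reads were recovered from the steps of these values (100% of values whole within 0.1 of a read in all 92 samples). The sources used here name no molecular identifiers, so counting errors cover counting only. CPM was computed from each column sum. Since tables were normalized separately, levels between tissues were set on CPM, the median of ratios and TMM, over all samples. Contrasts were fitted within a tissue with limma 3.58.1 (trend) on log2(value + 1) for rows above 0 in at least 2 samples. Fold changes on that scale understate changes of low rows. edgeR 4.0.16 (quasi-likelihood) and DESeq2 1.42.0 on recovered reads were alternatives, in R 4.3.3. The fits were also run on counts simulated from lung, with known changes larger than those of the row. That run did not cover small folds or the other tissues, and its outcome is not given here. The adipose air samples that share the number 8 were averaged (reads summed).

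The row, the rule and the lists were chosen with earlier results of these data known. The rule for named genes took the most even, highest, most and least variable and called rows, and the 3 just inside and just outside the limit; with 1 row these were that row and the 3 outside. Gene families and tissue markers listed by symbol could not be matched to the identifiers and were not analysed here. The limit of 1500 ppm for reads in rows typical of another tissue was chosen after seeing the data. The alternatives are given in the closing section.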

Additional observations from a re-analysis of the deposited data

How the results depend on the processing

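The number of even rows, 1, was 36 under the median of ratios, 36 under TMM, 23 without the 1% highest rows, 0 at the stricter limit tried, 89 at a limit of 2, 5 from 10 CPM, 0 from 100 CPM, 4 with medians, 3 with the adipose samples numbered 8 kept apart, 2 without liver air replicates 1 and 2, and 4 without the 7 samples high in rows typical of another tissue (added after seeing the data). It was 1 without the condition on overlap. With 1 sample left out it ran from 1 to 4, was above 1 in 26 of 92 cases (4 without liver air 5 or liver air 8), and ENSRNOT00000108471 met the rule in all 92. Its ratio in acrolein samples, 1.32, was 3.26 and 3.33 under the median of ratios and TMM, and 1.27 to 1.38 with 1 sample left out.

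The CV on the deposited values was 22.5% in muscle and 3.24% in hypothalamus, and in acrolein samples it was 17.7% in nasal epithelium, 18.3% in lung, 18.9% in liver, 18.5% in adipose, 10.9% in muscle and 13.7% in hypothalamus. With 1 air sample left out the CV ran from 8.19% to 14.4% in nasal epithelium (lowest without air 4), 9.48% to 14.9% in lung, 5.94% to 7.62% in liver, 12.1% to 15.8% in adrenal, 8.42% to 14.01% in adipose, 15.8% to 17.8% in muscle, 8.76% to 21.9% in hippocampus (lowest without air 8) and 3.72% to 5.71% in hypothalamus.

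In the 6 tissues whose contrast the rule did not use, the row was called in 0 of 119 alternative fits, with 0 at an unadjusted p under 0.05 (0 to 0 called with 1 sample left out); few rows of any kind were called there. Liver and nasal epithelium are not counted, since the rule used their ranges. The log2 fold change changed sign in muscle with CPM (-0.10), edgeR (-0.0144) and DESeq2 (-0.0145), and with 1 muscle sample left out ran from -0.097 to 0.088. With 1 sample left out it also changed sign in adipose (-0.17 to 0.017; positive without acrolein 14) and hippocampus (-0.021 to 0.14; negative without air 8). The causes were not tested. No paired analysis was possible because no replicate number occurs in both exposure groups of a tissue. Counting error was below the spread between samples in every group.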
